A study of Mus musculus with 10 samples.

Results

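Lung mast cells of C57BL/6 mice were compared for a response to house dust mite (HDM) extract that depends on the mast cell population. All 10 of the 10 libraries of the series entered this comparison, because each of its 4 groups is needed. The quantity followed for every gene is the interaction on the log2 scale, which is the HDM effect in B7hi cells minus the HDM effect in B7low cells. It is positive where HDM moved a gene further up in B7hi than in B7low, and negative in the reverse case. The cells were sorted from the lower airway of wild-type mice aged 5 to 7 weeks. The groups were B7hi after saline (PBS, n = 2), B7low after saline (n = 2), B7hi after HDM (n = 3) and B7low after HDM (n = 3). HDM-treated mice received 3 µg of extract in 20 µL through the nose, 2 times a week over 3 weeks, and the controls of both populations received the same volume of saline. All mice shared strain and genotype, and no allele or transgene is named. B7hi and B7low are the cell marker classes of the labels, which do not spell out B7; it is read here as integrin β7, since the title speaks of inducible and constitutive mast cells. Nothing in the labels ties a replicate number to one mouse or to a pool. The p-values below therefore reflect how far these libraries vary, and part of that variation may be technical.

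Mast cells of the airway are of more than one kind. Constitutive mast cells of connective tissue settle early in life and store heparin, chymase and tryptase. Inducible, mucosal-type mast cells derive from bone marrow progenitors that use integrin β7 to enter the lung during allergic inflammation. HDM is an allergen extract with protease activity that is widely used to provoke such inflammation in mice.

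Upstream sequences of 4 genes described below are given first. Ecm1 and Il6 each passed the test within one population, and Adora3 and Cd9 are among the genes with the smallest interaction p that have an entry in the sequence table. Each line is the 250 bases before the annotated RefSeq start on GRCm38.p6, 5′ to 3′ on the gene's strand. The windows lie on chromosome 3 from 95739570 to 95739819 on the minus strand (Ecm1), on chromosome 3 from 105904171 to 105904420 on the plus strand (Adora3), on chromosome 6 from 125494761 to 125495010 on the minus strand (Cd9) and on chromosome 5 from 30012864 to 30013113 on the plus strand (Il6). Capitals mark matches, on either strand, to 6 searched motifs.
Ecm1: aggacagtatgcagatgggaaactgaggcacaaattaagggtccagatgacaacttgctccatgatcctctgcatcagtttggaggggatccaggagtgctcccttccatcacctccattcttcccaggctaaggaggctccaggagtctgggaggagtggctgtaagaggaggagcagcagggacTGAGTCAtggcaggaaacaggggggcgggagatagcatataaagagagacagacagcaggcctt
Adora3: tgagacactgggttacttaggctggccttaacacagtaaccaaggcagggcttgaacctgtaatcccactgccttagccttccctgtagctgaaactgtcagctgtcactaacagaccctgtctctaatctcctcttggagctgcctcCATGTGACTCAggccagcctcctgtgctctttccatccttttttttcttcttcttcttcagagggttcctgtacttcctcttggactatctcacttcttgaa
Cd9: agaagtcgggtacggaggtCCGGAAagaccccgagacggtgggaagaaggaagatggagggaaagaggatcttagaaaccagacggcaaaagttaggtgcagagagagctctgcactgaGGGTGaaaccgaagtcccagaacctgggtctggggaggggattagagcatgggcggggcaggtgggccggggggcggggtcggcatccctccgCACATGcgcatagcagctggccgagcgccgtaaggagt
Il6: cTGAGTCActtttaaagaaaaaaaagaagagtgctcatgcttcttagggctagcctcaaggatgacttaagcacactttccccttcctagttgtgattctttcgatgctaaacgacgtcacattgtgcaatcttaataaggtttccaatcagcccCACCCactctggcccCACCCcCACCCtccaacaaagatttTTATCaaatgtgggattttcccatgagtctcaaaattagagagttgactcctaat
The motifs were TGACTCA (AP-1), CATGTG (M-box, bound by MITF), GATAA (GATA factors), CACCC (KLF factors), CCGGAA (ETS factors) and TTCNNNGAA (STAT factors). Ecm1, Adora3 and Il6 each held 1 AP-1 match, a motif found in 4.46% of the 32851 windows of this length in the table. The Adora3 start used here lies inside the span of the gene given below. In Adora3 the AP-1 match overlaps an M-box, which 12.3% of windows hold. Cd9 held 1 match each for ETS (12% of windows), KLF (52%) and the M-box, and Il6 held 3 for KLF and 1 for GATA (22.6%). None of the 4 windows held the STAT motif, present in 7.02% of windows. The windows of Cma1 and Tph1, also among the leading genes, held 1 GATA match and no match, respectively. These matches describe the letters of the windows and say nothing on binding in these cells.

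The libraries held 525983 to 1725818 counts. A level given as CPM, counts scaled to a common library size, rests on few reads where it is low, since 3 counts were worth 1.57 to 5.87 CPM by library. Transcripts that define mast cells were abundant in every library, with Cpa3 at 4699 to 26630 CPM and Kit at 2693 to 5642 CPM. The integrin β7 gene Itgb7 had close transcript levels in the populations, at 681 and 1011 CPM in B7hi and 603 and 570 CPM in B7low after saline. A pair of libraries stood apart, B7low saline 2 and B7hi HDM 2, with the nuclear RNA Kcnq1ot1 at 6956 and 12130 CPM against 806 to 2794 CPM elsewhere and the lowest depths of all. Both enter the interaction with the same sign, and the results that lead below are therefore also given without them. In such sorted bulk samples, fewer cells of a type and less RNA per cell cannot be told apart.

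Across the 10533 genes tested, the fitted HDM effects had unlike signs in the populations for slightly more genes than like signs. The 2 HDM effects rest on separate libraries, and across genes they had a Pearson correlation of −0.15 (Spearman −0.14), a description over genes that are not independent replicates. Positive effects in both populations were seen for 25.0% of genes and negative effects in both for 21.4%. A positive effect in B7hi with a negative one in B7low was seen for 26.6%, and the reverse for 26.9%. In edgeR's quasi-likelihood test of the interaction, 0% of genes (0 of 10533) passed a Benjamini-Hochberg adjusted p of 0.05. The lowest adjusted p was 0.054, reached by Ecm1 and by Cd9. An unadjusted p under 0.05 was reached by 396 genes with a positive interaction (3.76% of those tested) and 505 with a negative one (4.79%), 901 in all. That split was 216 and 911 when scaled by library size alone, 517 and 409 with DESeq2 and 316 and 246 with limma-voom. On the same genes DESeq2 called 44 interactions, 23 positive and 21 negative, and limma-voom with quality weights called 0. Without a count filter edgeR called 143, of which 43 are also among the DESeq2 calls.

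**Figure D1:**
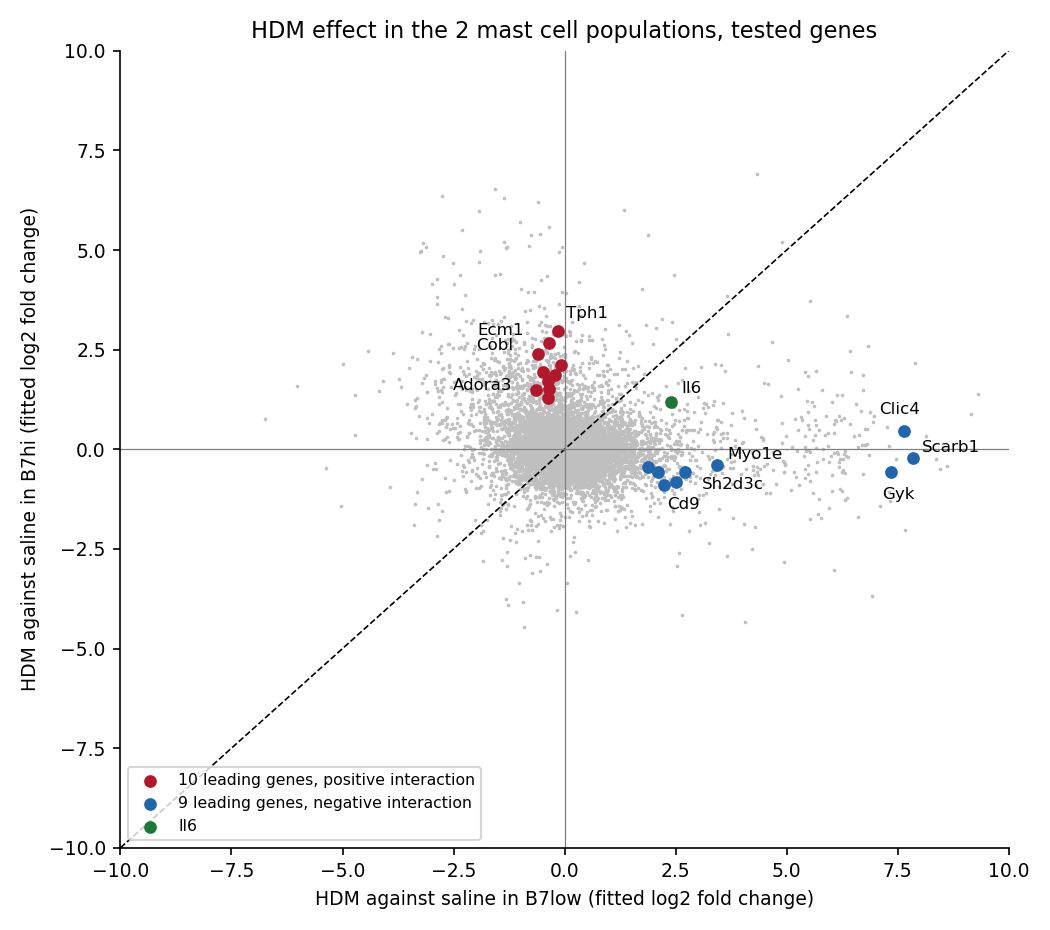
Each grey point is 1 of 10533 tested genes, placed by its fitted log2 fold change for HDM against saline in B7low (horizontal axis) and in B7hi (vertical axis); the dashed line marks equal effects. Of the genes with the lowest interaction p in each direction and at least 20 CPM, 10 positive and 9 negative ones are marked and lie off that line, the positive ones (red) above it and the negative ones (blue) below it, and Il6 (green) is positive on both axes.

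Negative interactions mostly had their larger HDM effect in B7low, while positive ones were divided between the populations. Of the 396 genes with an unadjusted p under 0.05 and a positive interaction, 231 had the larger HDM effect in B7hi and 165 in B7low. Of the 505 negative ones, 433 had the larger effect in B7low and 72 in B7hi. Among the negative ones, 72 had no count in either B7low saline library. These are the libraries with the highest detection limits after B7hi HDM 2. Among the positive ones 0 did, but an empty B7low saline group by itself pulls the interaction down. That contrast is therefore no separate result. Opposite responses were also counted without a test, as genes whose HDM and saline libraries did not overlap in either population and moved in opposite directions. By that count 117 genes (1.11%) were higher with HDM in B7hi and lower in B7low, and 176 (1.67%) were the reverse. For comparison, 118 genes were higher with HDM in both populations and 101 lower in both.

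A single gene passed the test within each population (0.00949% of genes in B7hi and 0.00949% in B7low). Ecm1, which encodes a secreted glycoprotein of the extracellular matrix (chromosome 3, 95734147 to 95739569), stood at 13.6 and 12 CPM in B7hi after saline and at 82.5, 60.7 and 97.9 CPM after HDM. In B7low it stood at 215 and 107 CPM after saline and at 145, 126 and 106 CPM after HDM. All 3 B7hi HDM libraries lie above both B7hi saline libraries and below every B7low library, while the B7low groups overlap at their lower end. Ecm1 rose with HDM in B7hi by 2.67 ± 0.38 (log2 fold change ± SE, edgeR adjusted p = 0.026), and in B7low its effect was −0.36 (adjusted p = 0.77). The interaction was 3.03 ± 0.49 (edgeR adjusted p = 0.054, range 0.015 to 0.17 with each library left out in turn) and 3.58 (adjusted p = 0.014) without the 2 libraries that stood apart. The rise in B7hi lost its call without B7hi saline 1, B7hi saline 2 or B7low HDM 2 (adjusted p = 0.22, 0.099 and 0.079). With saline the Ecm1 level in B7hi was 7.95% of that in B7low, and with HDM it was 63.9%.

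Il6, a cytokine gene of activated mast cells (chromosome 5, 30013114 to 30019981), was the gene called in B7low. It stood at 47.2 and 65.2 CPM in B7low after saline and at 454, 213 and 233 CPM after HDM. In B7hi it stood at 182 and 184 CPM after saline and at 408, 380 and 467 CPM after HDM. HDM and saline libraries are apart in both populations and point the same way. Il6 rose in B7low by 2.40 ± 0.36 (log2, edgeR adjusted p = 0.041), against 1.19 ± 0.31 (adjusted p = 0.36) in B7hi. The interaction was −1.21 ± 0.45 (adjusted p = 0.50), so a difference in size between the populations was not shown. The call in B7low was lost without either B7low saline library (edgeR adjusted p = 0.069 and 0.22), without any one B7hi HDM library (0.062, 0.071 and 0.091), without B7low HDM 1 (0.070) and without both libraries that stood apart (0.24). It was also lost with DESeq2 size factors (0.055) and with limma-voom (0.33), while the effect lay between 1.98 and 2.66 in all of these fits.

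The 10 leading genes with a positive interaction all had a lower mean level in B7hi than in B7low after saline. Those saline levels are part of the interaction by which the genes were picked, so the choice itself favours this. The adenosine A3 receptor gene Adora3, whose product strengthens mast cell degranulation (chromosome 3, 105870858 to 105908926), was at 32.5 and 33.4 CPM in B7hi after saline and at 121, 82.2 and 71.2 CPM after HDM. In B7low the levels were 350 and 279 CPM after saline and 229, 206 and 174 CPM after HDM. The groups are apart in both populations and in opposite directions. The Adora3 interaction was 2.11 ± 0.40 (edgeR adjusted p = 0.15, against 0.0011 in DESeq2 and 0.38 in limma-voom). Its level in B7hi was 10.5% of that in B7low after saline and 45.0% after HDM.

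Tph1 encodes the enzyme that limits serotonin synthesis outside the brain. It was at 39.3 and 152 CPM in B7hi after saline and at 943, 585 and 749 CPM after HDM. The B7low levels were 1021 and 903 CPM after saline and 824, 1189 and 593 CPM after HDM. Both B7hi saline libraries are far below all others, and the B7hi HDM libraries reach the B7low range, 1 of them just under it. The interaction was 3.12 ± 0.64 (edgeR adjusted p = 0.20, against 2.1e-04 in DESeq2 and 0.73 in limma-voom). It was 2.43 without B7hi saline 1 and 4.43 without B7hi saline 2. Maob and Ddc, which encode an enzyme of amine breakdown and the decarboxylase that follows Tph1 in serotonin synthesis, had interactions of 2.75 ± 0.70 and 2.83 ± 0.74 (adjusted p = 0.24 and 0.26). Ddc was at 2.27 and 11.5 CPM in B7hi after saline against 71.3, 21.5 and 71.2 CPM after HDM. Among 23 tested genes of amine synthesis and granule transport, 3 were positive and 1 negative at an unadjusted p under 0.05. Over all tested genes, 3.76% were positive and 4.79% negative at that p. The median interaction of the list was 0.25 against −0.04 over all tested genes.

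The list of connective tissue mast cell genes had the highest median interaction of the mast cell, signalling and metabolic lists with at least 10 tested genes. All 12 tested members of its 14 had a positive interaction, 7 with an unadjusted p under 0.05 and 0 past the adjusted threshold. Over all tested genes, 3.76% had such an unadjusted p with a positive interaction. The median interaction was 2.22, from a median HDM effect of 1.72 in B7hi and −0.42 in B7low. Without the 2 libraries that stood apart the count was again 7 of 12 and the median 2.51, and with each library left out in turn it ran from 6 to 8 members and from 1.71 to 2.78. The chymase gene Cma1 (chromosome 14, 55941451 to 55944675) was at 1605 and 1927 CPM in B7hi after saline and at 6205, 4282 and 4736 CPM after HDM. In B7low it was at 34320 and 17230 CPM after saline and at 23320, 21480 and 16090 CPM after HDM. The B7hi groups are apart, while the B7low groups overlap, and the Cma1 interaction was 1.87 ± 0.44 (edgeR adjusted p = 0.22). Tpsb2, which encodes a tryptase of the granule, was at 206 and 559 CPM in B7hi after saline and at 3331, 996 and 1103 CPM after HDM (interaction 2.65 ± 0.78, adjusted p = 0.40).

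The B7hi level as a share of the B7low level differed from gene to gene. With HDM, the B7hi level was 3.65% of the B7low level for the chymase gene Mcpt4, 5.81% for the protease gene Prss34, 13.8% for the Mas-related receptor gene Mrgpra4, 18.3% for Tpsb2 and 25.0% for Cma1. It was 87.4% for Tph1, 101% for Inpp4b, which encodes a phosphatase of phosphoinositides, and 137% for Slc5a3, a myo-inositol transporter gene. Mcpt4 was at 363, 108 and 241 CPM in B7hi after HDM against 240 and 90.3 CPM after saline, which overlap. Itgae, whose product pairs with integrin β7, kept the populations apart with HDM, at 534, 427 and 278 CPM in B7hi and 9.49, 21.5 and 0 CPM in B7low.

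**Figure D2:**
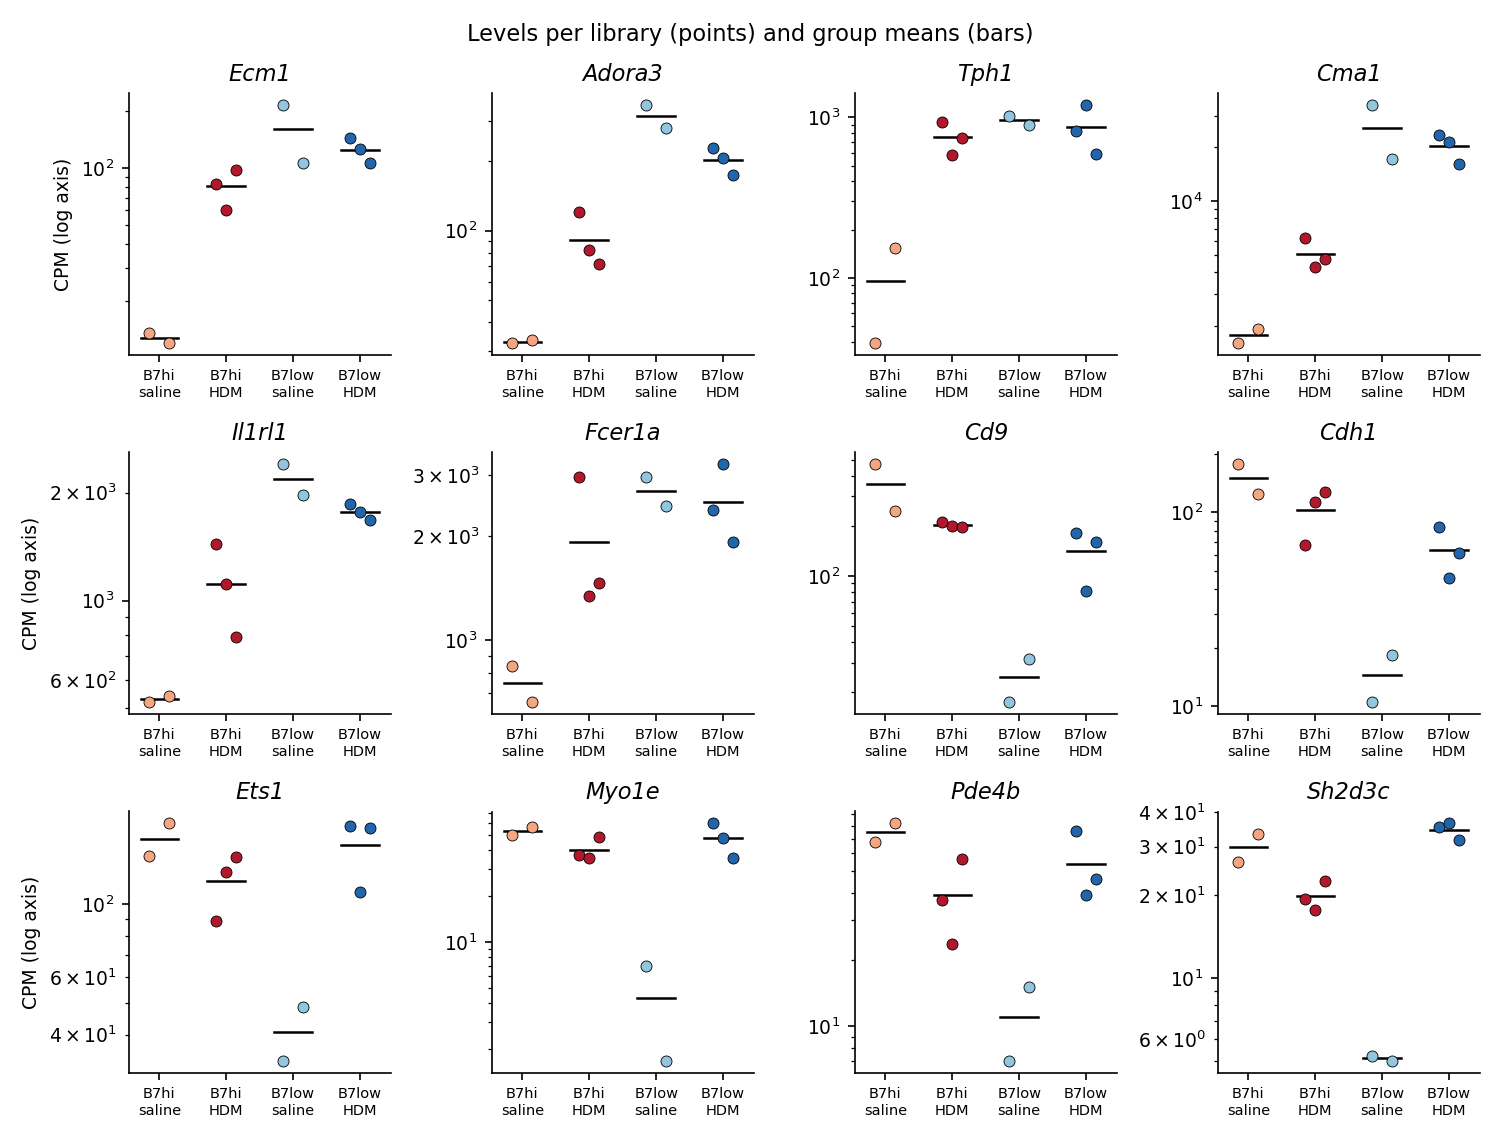
Points are the CPM of 12 genes in each of the 10 libraries on a log axis, and bars are group means. In the upper genes from Ecm1 to Fcer1a the B7hi HDM libraries lie between the B7hi saline libraries and the B7low level or within it, and in Cd9, Cdh1, Ets1, Myo1e, Pde4b and Sh2d3c the B7low saline libraries lie below all others.

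The general mast cell identity genes had a weaker form of the same pattern. Of 24 tested, 19 had a positive interaction, and the median was 0.58. An unadjusted p under 0.05 was reached by 5 positive ones, against 3.76% of all tested genes, and by 0 negative ones. Without the 2 libraries that stood apart 8 of 24 had such a p. The 5 were Tph1, Cd200r3, Il1rl1, Fcer1a and Hpgds. Il1rl1, the gene of the IL-33 receptor through which epithelial alarm signals reach mast cells, was at 522 and 541 CPM in B7hi after saline and at 1439, 1112 and 792 CPM after HDM. In B7low it was at 2397 and 1975 CPM after saline and at 1861, 1764 and 1678 CPM after HDM. Both pairs of groups are apart and in opposite directions, with an interaction of 1.37 ± 0.38 (edgeR adjusted p = 0.28). Fcer1a, the gene of the IgE-binding receptor chain, was at 839 and 662 CPM in B7hi after saline and at 2971, 1339 and 1459 CPM after HDM, with an interaction of 1.47 ± 0.48 (adjusted p = 0.42). Kit had an interaction of 0.47 ± 0.43 (adjusted p = 0.82). Of 28 tested genes of IgE receptor signalling, 12 had a positive interaction, with a median of −0.16.

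Receptors and regulators made up the rest of the leading positive genes. Cd200r3 and Cd200r4 encode activating receptors of the CD200 receptor family on mast cells and basophils. Cd200r3 was at 31.7 and 57.4 CPM in B7hi after saline and at 244, 121 and 119 CPM after HDM, against 497 and 468 CPM and then 481, 460 and 315 CPM in B7low. Its interaction was 2.06 ± 0.49 and that of Cd200r4 2.19 ± 0.49 (edgeR adjusted p = 0.22 for each). The interaction of Cobl passed the threshold without B7hi HDM 3 (adjusted p = 0.047). Cobl, an actin nucleator gene, and Ldlrad4, which encodes a brake on TGF-β signalling, had interactions of 2.97 ± 0.70 and 2.42 ± 0.59. Inpp4b and Slc5a3 had 1.66 ± 0.38 and 2.08 ± 0.48 (adjusted p = 0.22 for all 4). The mucosal protease genes Mcpt1 and Mcpt2, named for the inducible type of mast cell, varied too much between libraries to place. Mcpt1 was at 56.7 and 861 CPM in B7hi after saline and at 10240, 3120 and 7618 CPM after HDM, and in B7low at 1.75 and 3550 CPM and then at 8.13, 4826 and 587 CPM. The interaction was 3.90 ± 3.67 (adjusted p = 0.83).

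Cd9, the reported gene with the smallest interaction p among the negative ones, encodes a tetraspanin of the cell surface (chromosome 6, 125460266 to 125494791). It was at 468 and 246 CPM in B7hi after saline and at 209, 200 and 196 CPM after HDM. In B7low it was at 17.5 and 31.8 CPM after saline and at 182, 80.7 and 161 CPM after HDM. Here the larger effect was in B7low, 2.50 (edgeR adjusted p = 0.074), against −0.82 in B7hi, and the groups are apart in both. The interaction was −3.32 ± 0.55 (adjusted p = 0.054, range 0.016 to 0.18 with each library left out). Cdh1, the gene of E-cadherin, which binds the αEβ7 integrin, was at 10.5 and 18.4 CPM in B7low after saline and at 84.0, 45.5 and 61.9 CPM after HDM. In B7hi it was at 177 and 124 CPM and then at 67.5, 114 and 127 CPM, which overlap at one library, and its interaction was −2.67 ± 0.57 (adjusted p = 0.19).

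Among 38 tested adhesion and chemotaxis receptors, 7 had an unadjusted p under 0.05 with a negative interaction, against 4.79% of all tested genes. Only 1, the tetraspanin gene Cd81, had such a p with a positive interaction, against 3.76% of all tested genes. The negative ones included Cd9, Cdh1, S1pr2, Itgal, Ccr1 and Selplg. The last 4 encode a sphingosine phosphate receptor, the αL integrin chain, a chemokine receptor and the P-selectin ligand, and their interactions were −2.22, −2.14, −2.57 and −1.13 (edgeR adjusted p = 0.40 to 0.46). The median of the list was −0.74, from −0.38 in B7hi and 0.43 in B7low, and −1.34 with 9 negative members without the 2 libraries that stood apart. The leukotriene B4 receptor gene Ltb4r1, from the list of eicosanoid genes, had an interaction of −3.51 ± 0.93 (adjusted p = 0.26), at 124 and 116 CPM in B7hi and 3.50 and 3.34 CPM in B7low after saline. That list as a whole was not negative. Of its 16 tested genes, 10 had a positive interaction, and the median was 0.31. At an unadjusted p under 0.05, 2 were positive and 2 negative, against 3.76% and 4.79% of all tested genes.

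The remaining leading negative genes had their lowest levels in the 2 B7low saline libraries. These libraries also enter the interaction by which the genes were picked, so the choice favours low levels there. Ets1, a transcription factor gene (chromosome 9, 32636221 to 32757820), was at 33.2 and 48.5 CPM in B7low after saline and at 174, 109 and 172 CPM after HDM. In B7hi it was at 141 and 177 CPM after saline and at 88.8, 125 and 140 CPM after HDM, and the interaction was −2.32 ± 0.45 (edgeR adjusted p = 0.16). Myo1e, a class I myosin gene, was at 6.99 and 1.67 CPM in B7low after saline and at 59.6, 48.1 and 35.4 CPM after HDM (interaction −3.82 ± 0.69, adjusted p = 0.11). Pde4b, which encodes a phosphodiesterase that breaks down cyclic AMP, and the adaptor gene Sh2d3c had interactions of −3.13 ± 0.66 and −3.30 ± 0.67 (adjusted p = 0.19 and 0.16). Clic4, Gyk and Scarb1, which encode an intracellular chloride channel, glycerol kinase and the receptor for high-density lipoprotein, had no count in B7low saline. After HDM they were at 21.7, 22.8 and 19 CPM (Clic4), 20.3, 13.0 and 18.3 CPM (Gyk) and 23, 26.7 and 22.8 CPM (Scarb1). Against 3 counts over the B7low saline group, or 2.56 CPM, those levels are at least 8.19-fold, 6.47-fold and 9.50-fold higher.

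**Figure D3:**
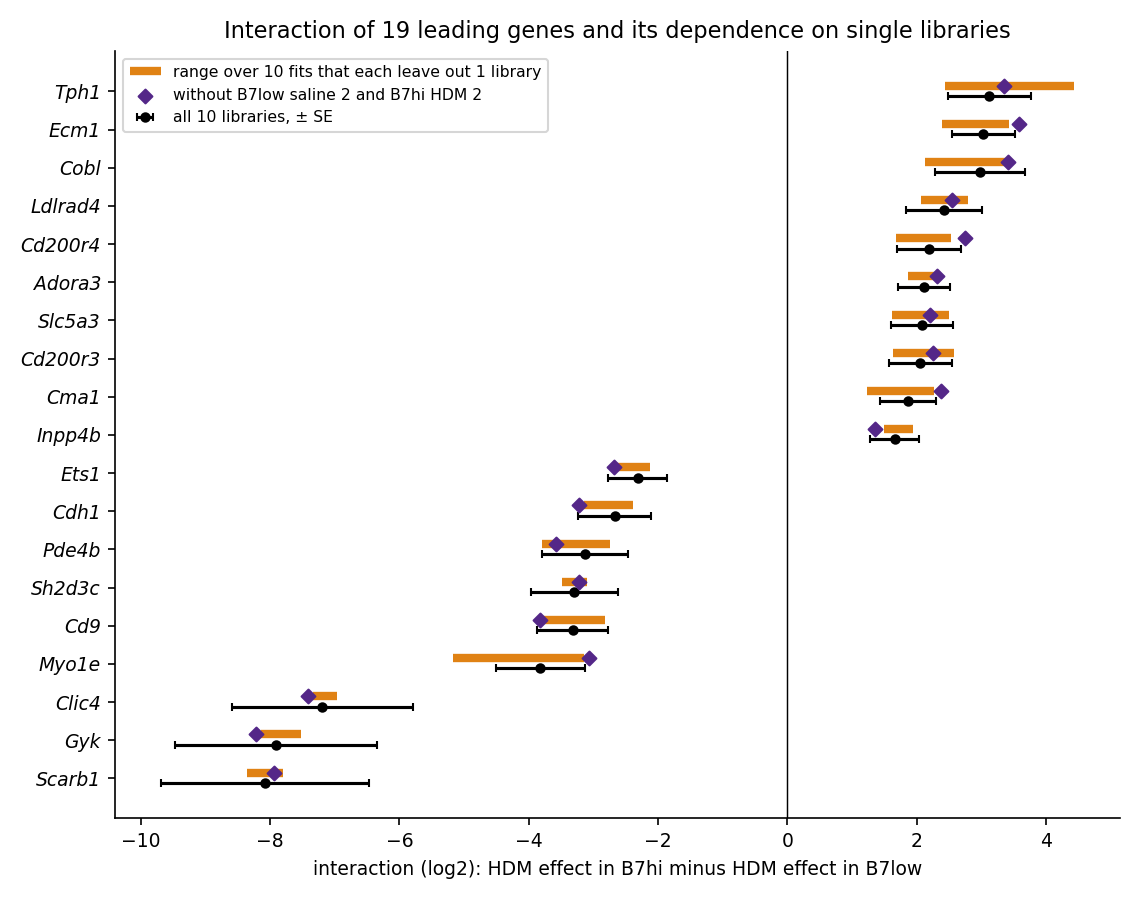
For 10 leading genes with a positive and 9 with a negative interaction, the horizontal axis gives the interaction on the log2 scale: black points with bars are the fit to all 10 libraries ± SE, orange bars the range over 10 fits that each leave out 1 library, and diamonds the fit without B7low saline 2 and B7hi HDM 2. Each gene keeps its side of 0 in all of these fits, which share most libraries with the fit that picked the genes.

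MHC class II genes had the most negative median among the lists with at least 10 tested genes. Of 12 tested MHC class II and costimulation genes, 4 had an unadjusted p under 0.05, all negative, and the median interaction was −3.34, from −0.43 in B7hi and 2.68 in B7low. H2-DMa, a chaperone gene for peptide loading, was at 5.25 and 11.7 CPM in B7low after saline and at 40.7, 48.1 and 28.4 CPM after HDM, with an interaction of −3.02 ± 0.74 (edgeR adjusted p = 0.22). Ctss, the gene of a protease that trims the invariant chain, was at 1.75 and 0 CPM and then at 69.1, 63.7 and 14.5 CPM (−5.63 ± 1.31, adjusted p = 0.22). The list median was −4.50 without the 2 libraries that stood apart and between −4.64 and −0.56 with each library left out. MHC class I presentation genes had 2 of 21 such members, both negative, a share near that of all tested genes (3.76% positive and 4.79% negative). One of them was the immunoproteasome gene Psmb9 (−2.08 ± 0.55, adjusted p = 0.26).

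B cell markers were high in the same group. B7low HDM libraries had a summed B cell marker level of 638, 416 and 79.6 CPM, B7low saline libraries 21.0 and 51.8 CPM and B7hi libraries 5.63 to 73.1 CPM. All 6 tested B cell markers had a negative interaction, 3 of them with an unadjusted p under 0.05, and the median was −5.56. With each library left out, 1 to 5 had such a p and the median ran from −6.29 to −2.18. Over all tested genes, 4.79% had such a p with a negative interaction, and 5042 of 10533 had a positive interaction. Cd79b was at 123, 103 and 31.0 CPM in B7low after HDM (interaction −5.53 ± 1.15, edgeR adjusted p = 0.19). The B7low HDM sums were 545, 193 and 104 CPM for endothelial markers and 217, 118 and 41.1 CPM for dendritic cell markers, against 59.5 and 181 CPM and 29.7 and 41.8 CPM in B7low saline. In B7low HDM 1 and 2, most of the dendritic cell sum was Ccr7, at 165 and 93.7 CPM. Of 4 tested dendritic cell markers, 3 had a positive interaction and Ccr7 a negative one (−6.33). Their median interaction was 2.08, and −5.08 without the 2 libraries that stood apart. In B7low HDM 3, the library with the lowest B cell sum of the 3, Ms4a1 was at 36.0 CPM, Cd79a at 8.85 CPM and Ebf1 at 0 CPM. The part of such cells in the MHC class II values and in those of the other negative genes was not tested.

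**Figure D4:**
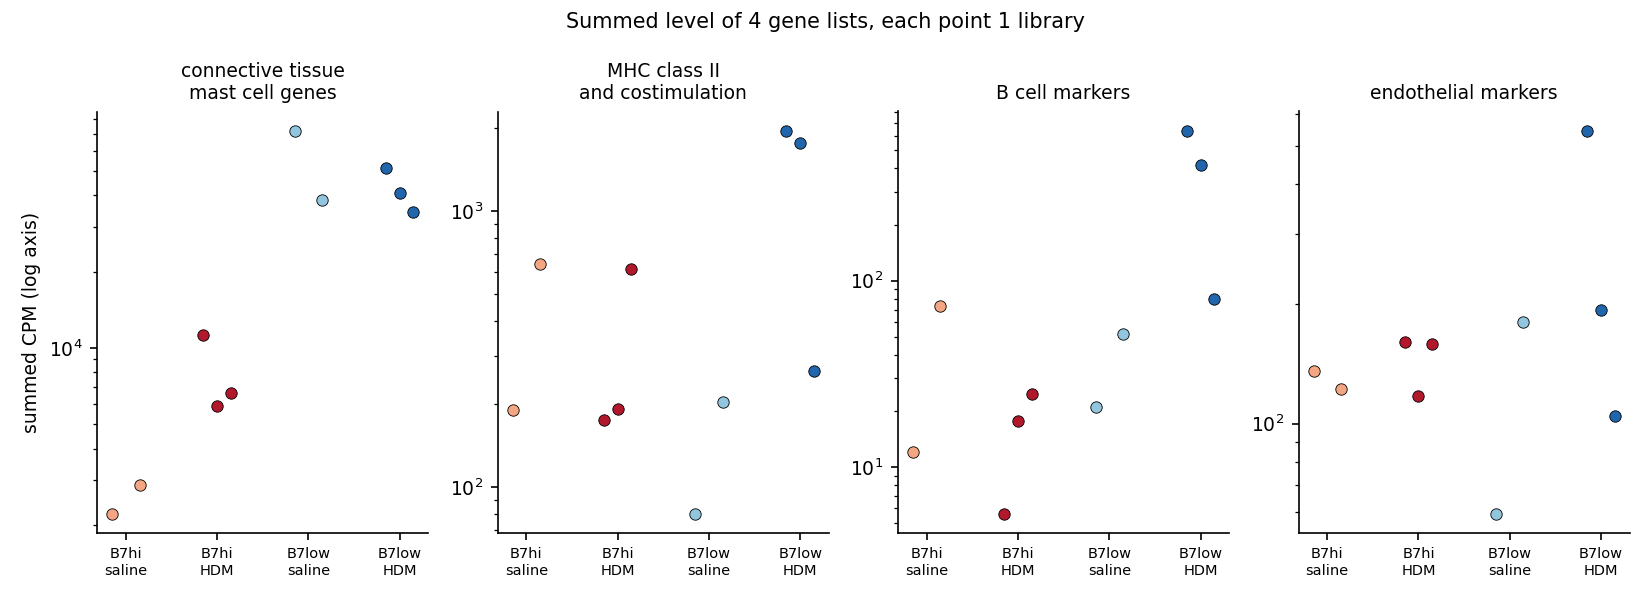
Each point is the summed CPM of a gene list in 1 library, on a log axis, for connective tissue mast cell genes, MHC class II and costimulation genes, B cell markers and endothelial markers. The connective tissue sum is 2217 and 2867 CPM in B7hi after saline, 5897 to 11270 CPM in B7hi after HDM and 34270 CPM or more in B7low, and the B cell marker sum is highest in B7low HDM 1 and 2.

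Cytokine, interferon and cholesterol genes had negative median interactions in the fit to all libraries. Of 22 tested cytokines and chemokines, 2 had an unadjusted p under 0.05 with a positive interaction and 5 with a negative one. Over all tested genes these shares were 3.76% and 4.79%. The negative count was 1 without the 2 libraries that stood apart and 0 to 6 with each library left out, when the median ran from −0.78 to 0.02. The median HDM effect was 0.91 in B7low and 0.34 in B7hi. The chemokine gene Ccl4 was at 390 and 363 CPM in B7low after saline and at 1606, 455 and 1163 CPM after HDM, with B7hi libraries between 943 and 2335 CPM (interaction −1.80 ± 0.64, edgeR adjusted p = 0.49). Vegfa, the gene of a growth factor for vessels, had the opposite sign (2.59 ± 0.98, adjusted p = 0.50), at 2.27 and 4.18 CPM in B7hi after saline and at 17.5, 19.6 and 13.7 CPM after HDM. Ptgs2, which encodes the inducible cyclooxygenase, was at 6.99 and 31.8 CPM in B7low after saline and at 428, 75.5 and 142 CPM after HDM (−2.92 ± 1.10, adjusted p = 0.53).

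Of 43 tested interferon-stimulated genes, 6 had an unadjusted p under 0.05, all negative, with a list median of −0.52, and without the 2 libraries that stood apart 3 of 48 did. With each library left out, 2 to 10 were negative at that p. Of 32 cholesterol genes, 5 were negative and 1 positive at that p, against 4.79% and 3.76% of all tested genes. The negative count was 3 without the 2 libraries that stood apart and 3 to 9 with each library left out, when the median ran from −0.76 to −0.07. The sterol sensor gene Insig2 was at 1.75 and 5.02 CPM in B7low after saline and at 24.4, 22.1 and 24.0 CPM after HDM (−2.27 ± 0.80, edgeR adjusted p = 0.46). The positive one was Soat1, whose product stores cholesterol as ester, at 96.7 and 154 CPM in B7hi after saline and at 506, 301 and 340 CPM after HDM (1.28 ± 0.43, adjusted p = 0.46). Of 50 cell cycle genes 7 had a positive interaction, 5 of the negative ones had an unadjusted p under 0.05 (1 to 11 with each library left out), and the median was −0.83, which ran from −1.54 to −0.03 with each library left out. The proliferation gene Mki67 was at 46.1 and 83.5 CPM in B7hi and at 15.7 and 36.8 CPM in B7low after saline, with an interaction of −0.71 ± 0.79 (adjusted p = 0.86).

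Immediate early and stress genes of the kind that cell isolation induces went both ways. At an unadjusted p under 0.05, 8 of 38 tested were positive and 3 negative, against 3.76% and 4.79% of all tested genes. Heat shock genes were among the positive ones, such as Hsph1, a chaperone gene, at 29.5 and 59.5 CPM in B7hi after saline and at 244, 93.9 and 81.5 CPM after HDM (2.13 ± 0.84, edgeR adjusted p = 0.53). Dusp2, the gene of a phosphatase that switches off MAP kinases, was negative (−3.34 ± 0.89, adjusted p = 0.37). Its B7hi saline libraries were at 54.4 and 298 CPM and those after HDM at 95.0, 45.0 and 54.8 CPM, while B7low was at 26.2 and 56.9 CPM and then at 165, 128 and 183 CPM. Without B7hi saline 1 the Dusp2 interaction passed the threshold (adjusted p = 0.013). The count of positive members ran from 1 to 15 with each library left out and was 4 without the 2 libraries that stood apart.

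Some other programs had interactions near that of all genes. The median was −0.05 over 82 ribosomal protein genes, −0.08 over 74 genes of oxidative phosphorylation, −0.01 over 34 genes of the unfolded protein response and 0.08 over 34 chromatin and splicing regulators. At most 2 genes of each of these lists had an unadjusted p under 0.05. Over all tested genes, 3.76% were positive and 4.79% negative at that p. Not every remaining list was so close. Of 30 glycolysis and hypoxia genes, 5 were negative and 1 positive at that p, with a median of −0.23. Of 31 NF-kB targets, 3 were negative and 1 positive, with a median of −0.27. Without the 2 libraries that stood apart these medians were −0.39 and −0.02.

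**Figure D5:**
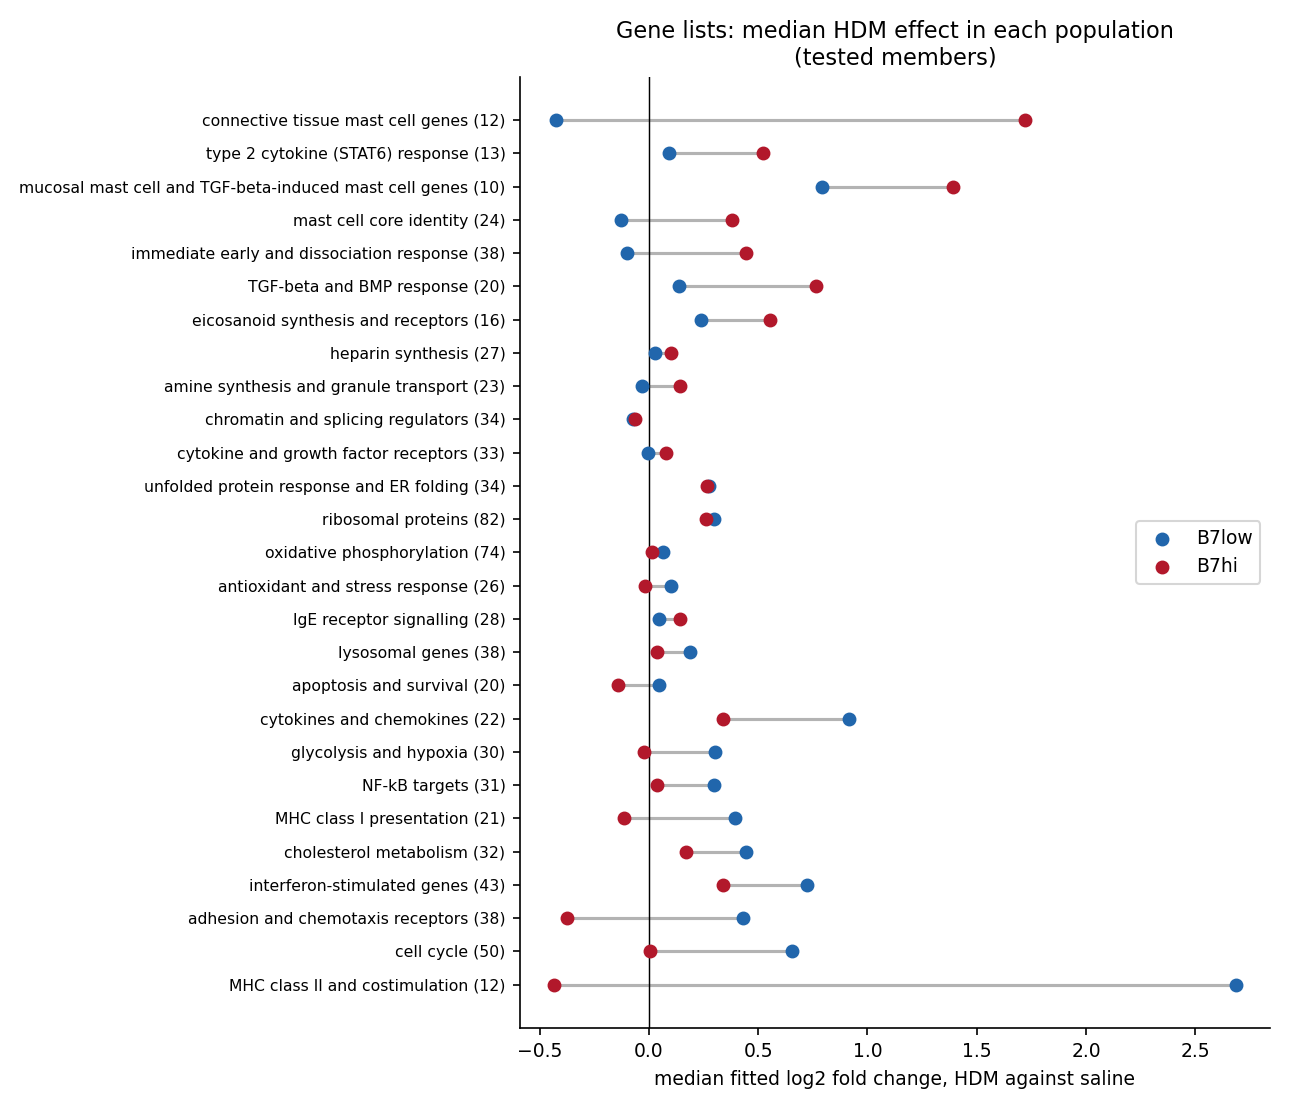
For each gene list with at least 10 tested members (number in brackets), red and blue points are the median fitted log2 fold change of HDM against saline in B7hi and B7low. The points lie farthest apart for MHC class II (−0.43 in B7hi, 2.68 in B7low) and connective tissue mast cell genes (1.72 and −0.42), and nearly coincide for ribosomal protein genes.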

How the data were processed

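The authors deposited 1 table of raw counts per gene symbol (22815 symbols, 10 libraries made with SmartSeq2, paired-end). The build mm10 and, with no role stated, TopHat2 2.0.10, Cufflinks 2.2.1 and DESeq2 are listed per the submitters' processing notes. Which program counted the reads, against which annotation and whether by strand, is not given in the sources used here, so antisense partners and close relatives such as Mcpt1 and Mcpt2 or the tryptase genes may share reads.

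Genes were kept by edgeR's filterByExpr (10533 of 22815), scaled by TMM and fitted with the quasi-likelihood model of edgeR 4.0.16 (R 4.3.3, robust) with 1 mean per group. The contrasts were two-sided, with Benjamini-Hochberg adjustment over all tested genes at 0.05. CPM use the TMM-scaled library size. SE were derived from the fold change and its F statistic. Counting limits (3 counts over a library or group) cover counting error only. The fit was tested on simulated data. Within groups, libraries differed by more than sampling noise (chi-square per degree of freedom 6.54 to 11.0). Each library counted as 1 replicate, though the labels do not say whether it stands for a mouse, a pool or a technical repeat.

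Named genes are the 10 per direction with the smallest interaction p and at least 20 CPM in the highest group (fewer than 10 passed the threshold), the 8 per direction with ranges apart and opposite, of each gene list up to 3 members by smallest p, and 16 genes in any case (Itgb7, Itgae, Kit, Il6 and others). Predicted gene models were left out, and some items are not reported here. Other members of a list whose p was under 0.05 and levels set beside a result were chosen after their values were seen. The comparison, the lists and the genes were chosen with earlier results of these data known. Lists are described by counts and medians, with no set test. The alternatives were DESeq2 1.42.0, limma-voom (limma 3.58.1), other scalings and count filters, a replicate block and libraries left out. Positions come from GENCODE M21 on GRCm38 and sequences from RefSeq on GRCm38.p6.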

Additional observations from a re-analysis of the deposited data

Results flagged for a closer look

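Opposite movement was seen in 82 genes of at least 20 CPM that were higher with HDM in B7hi and lower in B7low, and in 136 with the reverse. In these, HDM and saline libraries of the same population did not overlap, and the populations moved in opposite directions. By the same rule and level, 87 genes were higher with HDM in both populations and 76 lower in both. Over all tested genes, the shares with opposite movement were 1.11% (up in B7hi) and 1.67% (down in B7hi). The 15 genes named here are those with the smallest interaction p, up to 8 in each direction. For them the opposite movement as such was not tested, and the interaction that compares the 2 effects did not pass an edgeR adjusted p of 0.05 for any of them (0.054 to 0.28). Higher with HDM in B7hi and lower in B7low were Adora3 (interaction 2.11), Inpp4b (1.66), Cobl (2.97), Ldlrad4 (2.42), Ppfibp2 (3.69), Mrgpra4 (3.54), Sema5a (5.83) and Il1rl1 (1.37, all log2). Lower in B7hi and higher in B7low were Cd9 (−3.32), Myo1e (−3.82), Ets1 (−2.32), Gyk (−7.91), Sh2d3c (−3.30), Pde4b (−3.13) and L3mbtl3 (−4.99). The values of Gyk and L3mbtl3 rest on 0 counts in both and in 1 of the B7low saline libraries. Those of Sema5a and Mrgpra4 each rest on 0.76 and 0.52 CPM in B7hi saline. Sema5a was highest within its groups in B7low saline 2 (58.5 CPM) and B7hi HDM 2 (23.5 CPM), and without these libraries its interaction was 3.16 (edgeR adjusted p = 0.69). The Ppfibp2 interaction was 2.84 without B7hi saline 1 and 8.59 without B7hi saline 2.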

How the results depend on the processing

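The interaction of 19 leading genes kept its sign under every scaling, in DESeq2, in limma-voom, with the replicate block and with libraries left out. These genes were picked by their small interaction p in the same libraries, so the choice itself favours a kept sign. The count of interaction calls, 0 in the main fit, was 2 with library size alone, 3 with at least 5 CPM in 2 libraries, 143 with no count filter, 44 with DESeq2, 1 without both libraries that stood apart and 0 to 3 with each library left out (among them Ecm1 without B7low saline 2, Cobl without B7hi HDM 3, and Cd9 without B7hi saline 2 or B7low HDM 2). It was 0 with the replicate block, where the lowest adjusted p was 0.074. The count at an unadjusted p under 0.05, 901, was 1531 with no count filter, 562 with limma-voom and 621 to 1536 with each library left out. HDM calls in B7hi (1) were 89 with no count filter, 55 with DESeq2, 11 with limma-voom, 5 without both libraries and 0 to 11 with each left out. HDM calls in B7low (1) were 112, 19, 0, 0 and 0 to 13 in the same order, 0 with DESeq2 size factors, 4 with library size alone and 3 with the stricter filter. Opposite responses, 117 up and 176 down in B7hi, were 62 and 411 with library size alone, 475 and 554 without both libraries (fewer libraries leave more ranges apart) and 71 and 62 when defined by group means 1 log2 unit apart. The cause of the other shifts was not tested. Library size alone moved the median interaction of all genes from −0.04 to −0.33. Libraries of the 2 populations with the same replicate number had correlations of their deviations from the group mean of −0.11 to 0.04. With n = 2, both saline pairs give the same value by construction. Whether replicate numbers pair the libraries therefore cannot be told from these correlations. Depth limits low genes: a group sum of 3 counts in B7low saline is 2.56 CPM.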

Other observations

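Basophil markers had 3 of 6 tested members with an unadjusted interaction p under 0.05, all positive, against 3.76% of all tested genes. They were Prss34, Cd200r3 and Fcer1a, of which Cd200r3 and Fcer1a are also on the list of general mast cell genes. The interactions of the other 3, Mcpt8, Ifitm1 and Il3ra, were −0.50, −1.52 and −0.36. The list of mucosal and TGF-β-induced mast cell genes had a median interaction of 0.84 over 10 tested genes, which was −1.64 without the 2 libraries that stood apart. Type 2 cytokine response genes had 10 positive members of 13 tested and a median of 0.84, which was 0.03 without those libraries.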
